A study of Mus musculus with 12 samples.

Results

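The transcripts described here are those of 40 genes of the interferon response, given by name as interferon-stimulated genes and their regulators, without the interferon-induced GTPases and the MHC genes. All 40 were found among the 53465 genes of the count table through their Ensembl identifiers, and all 40 were among the 19830 genes that passed the filter on low counts. RNA was sequenced in bulk from HSCs of mouse bone marrow, sorted and then cultured for 2 days in Stemline II medium with SCF at 100 ng/ml and Flt3 at 2 ng/ml. Long-term HSCs (LT-HSCs) were sorted as lineage-negative, Kit+, Sca1+, CD150+, CD48- and CD34- cells, and short-term HSCs (ST-HSCs) as the same cells carrying CD34. Each cell type was grown without addition (control) or with nicotinamide riboside (NR), a vitamin B3 form from which cells make NAD, at 1 mM and given anew after 24 h. The 4 groups hold 3 samples each. The labels give no strain, age or genotype, no batch, and no statement that samples come from separate mice or cultures, so a p-value here measures no more than how these samples vary, and that variation may be technical. In bulk RNA, fewer cells of a type and less RNA per cell cannot be told apart.

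Reads assigned to genes numbered 24.6 M to 35.5 M per library. Sample 3 of each NR group stood apart, with 28.5% (LT-HSC) and 26.2% (ST-HSC) of reads outside annotated genes against 8.69% to 17.0% in the other 10 libraries, and numbers of called members are given with and without them. Of the genes for the sorting markers, Cd34 lay at 270.0, 247 and 260.5 CPM (counts per 1 M assigned reads, on scaled library sizes) in control LT-HSCs and at 638, 606 and 639 CPM in control ST-HSCs, and Kit was at 1344 CPM or more in every library. Ly6a, which encodes Sca1, was lower in control ST-HSCs (7.38, 5.51 and 5.82 CPM) than in control LT-HSCs (36.4, 47.6 and 28.9 CPM), although both were sorted as Sca1+. Slamf1, which encodes CD150, was at 18.9, 20.2 and 17.6 CPM against 38.3, 43.5 and 35.2 CPM, and Cd48 at 5.08, 3.86 and 6.25 CPM against 1.01, 0.631 and 0.855 CPM. After 2 days of culture the ST-HSC transcripts thus differed from those of LT-HSCs in more sorting markers than CD34.

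Interferons bind cell surface receptors, whose JAK kinases phosphorylate STAT proteins. Type I interferons form the complex ISGF3, which holds Stat2 and Irf9 and binds the interferon-stimulated response element (ISRE), while interferon gamma acts through the gamma-activated site (GAS). The genes so induced sense foreign nucleic acid, block steps of viral replication and feed back on the pathway. Stem cells are known to hold part of this program at a basal level, and type I interferon is known to bring dormant HSCs into cycle.

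Promoter windows in RefSeq (build GRCm38.p6, 250 bases before to 50 after an annotated start) were matched for 32 of the 40 members, in 41 windows. The letters GAAANNGAAA, the ISRE core searched on both strands, were in 15 of these 41 windows (36.6%) and in 3.44% of all 32851 windows. The GAS letters TTCNNNGAA, which read the same on both strands, were in 9 of the 41 windows (22.0%) and in 8.3% of all. Among windows of members that were higher with NR in either cell type, 6 of 15 (40%) held the ISRE letters, and among windows of the other members 9 of 26 (34.6%) did. The 250 bases before the start are shown for 4 members that were higher with NR, 3 with an ISRE match and Irf1 with a GAS match. Each is written 5′ to 3′ on the gene's strand with the match in capitals, and no annotated exon of GENCODE M21 lies in any of them.
Stat2, chr10:128270248-128270497, plus strand: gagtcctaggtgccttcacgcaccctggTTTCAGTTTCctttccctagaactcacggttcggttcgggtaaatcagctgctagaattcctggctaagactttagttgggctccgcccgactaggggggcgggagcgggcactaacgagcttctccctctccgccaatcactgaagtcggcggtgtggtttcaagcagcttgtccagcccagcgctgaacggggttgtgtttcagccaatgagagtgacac
Rsad2, chr12:26456453-26456702, minus strand: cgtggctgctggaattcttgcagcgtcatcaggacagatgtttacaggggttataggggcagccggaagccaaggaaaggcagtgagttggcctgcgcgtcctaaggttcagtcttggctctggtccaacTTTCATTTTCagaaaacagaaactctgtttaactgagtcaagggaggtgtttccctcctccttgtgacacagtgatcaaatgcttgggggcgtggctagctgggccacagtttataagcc
Trim30a, chr7:104465194-104465443, minus strand: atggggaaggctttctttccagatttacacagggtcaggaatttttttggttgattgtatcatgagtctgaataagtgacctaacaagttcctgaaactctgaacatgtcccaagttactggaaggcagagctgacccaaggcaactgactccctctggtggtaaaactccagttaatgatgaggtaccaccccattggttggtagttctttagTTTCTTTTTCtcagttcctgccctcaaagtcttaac
Irf1, chr11:53769764-53770013, plus strand: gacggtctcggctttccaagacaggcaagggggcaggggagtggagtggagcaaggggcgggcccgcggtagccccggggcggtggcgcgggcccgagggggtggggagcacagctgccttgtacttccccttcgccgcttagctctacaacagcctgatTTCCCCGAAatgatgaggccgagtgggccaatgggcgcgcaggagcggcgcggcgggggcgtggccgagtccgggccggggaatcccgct
The first base of the match was at -222 in Stat2, -120 in Rsad2, -36 in Trim30a and -90 in Irf1, counted from -1 as the base before the start. Ifit1 held 2 ISRE matches, TTTCACTTTC at -104 and TTTCAGTTTC at -85. A match is a description of these letters, and binding was not measured.

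With NR, transcripts of 13 of the 40 members rose in ST-HSCs and 1 fell, and in LT-HSCs 5 rose and 1 fell (edgeR, Benjamini-Hochberg adjusted p under 0.05). These are 32.5% and 12.5% of the members, beside 5.82% of all genes tested called higher in ST-HSCs and 2.38% in LT-HSCs. The 1 lower member in each cell type is 2.5% of the list, beside 11.1% of all genes called lower in ST-HSCs and 7.58% in LT-HSCs. These backgrounds moved with sample 3 of the NR groups: all genes called lower in ST-HSCs numbered 2193, but 1010 without NR sample 3 and 1229 without both sample 3 NR libraries, and in LT-HSCs 1503 became 877 without both. The members' median log2 change was 0.46 in ST-HSCs and 0.18 in LT-HSCs, where the median over all genes tested was -0.03 and 0.04. In ST-HSCs 21 of 40 members had all 3 NR libraries above all 3 controls and 4 of 40 had them below. Of all 19830 genes, 2354 (11.9%) and 4146 (20.9%) did. In LT-HSCs these numbers were 9 of 40 and 3 of 40 members, against 1700 (8.57%) and 3159 (15.9%) of the 19830 genes. The 13 and 5 include 4 shared members, Stat2, Dhx58, Rsad2 and Trim30a, which were higher in both cell types. Lgals3bp was the member that was lower in both.

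With 1 library left out, the number in LT-HSCs moved below and above the 5 of the main fit (range in the last section). It was 1 without control sample 1 or 3 or without NR sample 1, and 2 without control sample 2. In the same 4 fits all genes called higher fell from 472 to between 242 and 294. In ST-HSCs 9 to 13 members were higher with any 1 of the 6 libraries left out, where all genes called higher numbered 833 to 1375. With both sample 3 NR libraries left out, 8 members were higher and 0 lower in LT-HSCs, and 14 and 0 in ST-HSCs. All genes called there were 521 higher and 877 lower in LT-HSCs, and 1545 and 1229 in ST-HSCs. The sample number was also fitted as a block, being taken to pair the samples in LT-HSCs from correlations alone. In that fit 6 were higher and 2 lower there, the additions being Ddx58 (adjusted p = 0.0224) and Ifitm3 (adjusted p = 0.0213). All genes called in LT-HSCs with the block were 670 higher and 1898 lower. Of all called genes, 23.9% were higher in LT-HSCs and 34.5% in ST-HSCs, with relative log expression factors 37.4% and 51.7% were, and without both sample 3 NR libraries 37.3% and 55.7% were. With relative log expression factors 6 members were higher and 1 lower in LT-HSCs and 17 and 1 in ST-HSCs. All genes called with these factors were 712 higher and 1192 lower in LT-HSCs, and 1662 and 1552 in ST-HSCs.

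**Figure D1:**
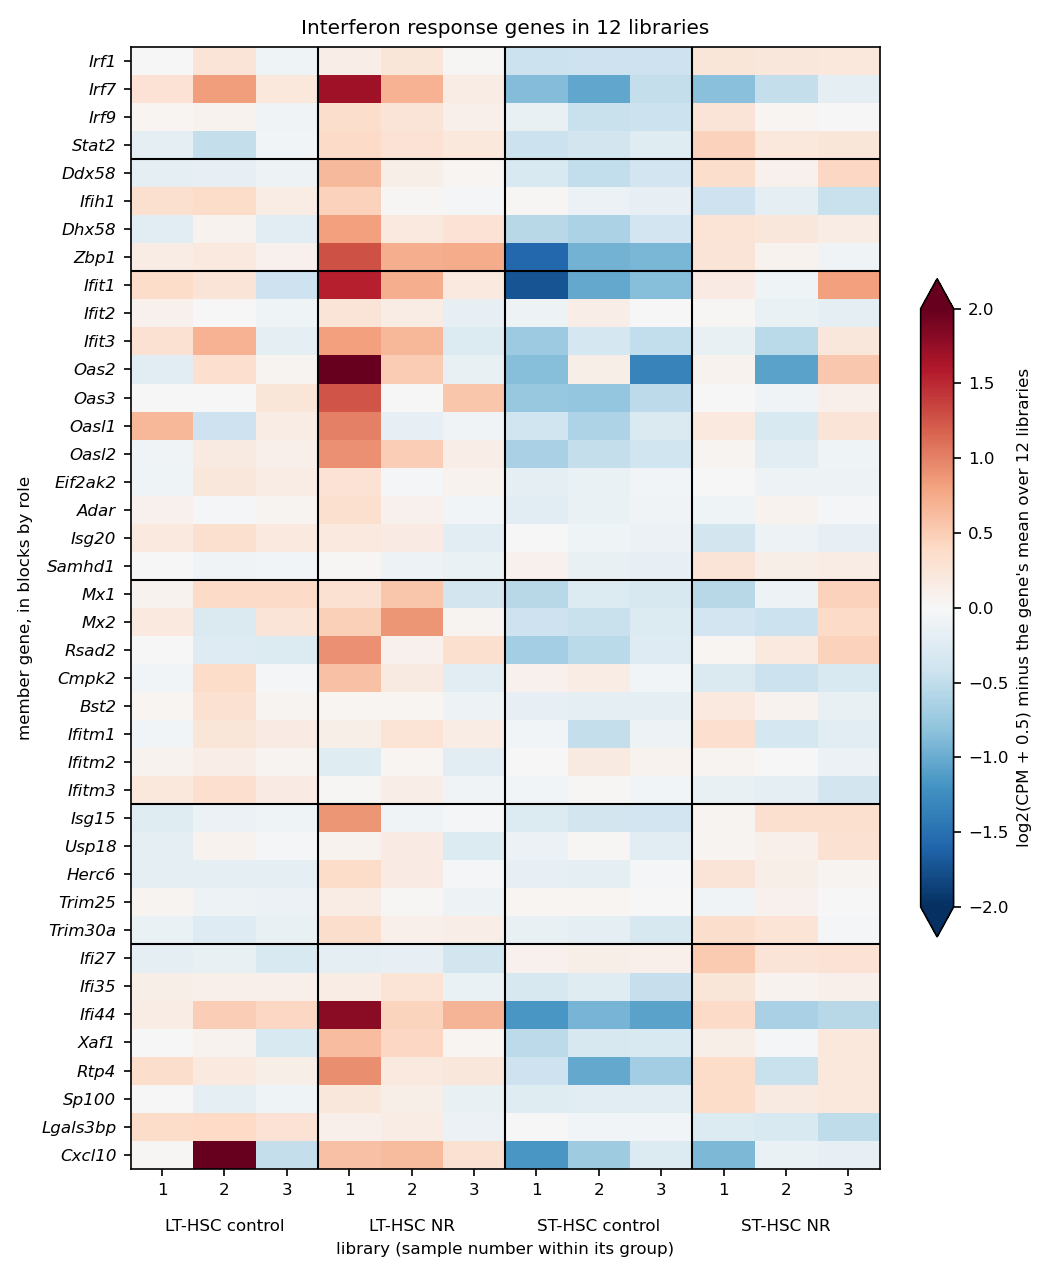
Level of each of the 40 members in the 12 libraries, as log2(CPM + 0.5) minus the gene's mean over the libraries (colour), with libraries in columns by group and members in rows by role. The columns of control ST-HSCs are mostly blue and that of NR LT-HSC sample 1, highest of its group for 29 of 40 members, is mostly red.

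No member was called for a difference between the NR effects of the cell types (0 higher and 0 lower in edgeR, where 0.0101% and 0% of all genes were called), and 5 members had an unadjusted p under 0.05. The members' median difference, ST-HSC effect minus LT-HSC effect, was 0.12 on the log2 scale. Irf1 had a difference of 0.58 ± 0.13 (edgeR adjusted p = 0.274). It was called with DESeq2 (adjusted p = 0.00366), with no filter (adjusted p = 0.0416) and with a mean of at least 5 CPM (adjusted p = 0.0341), and limma-voom called 0 members. The other 8 members called higher in ST-HSCs alone were called for a difference under no alternative run. Changes were positive in both cell types for 27 of 40 members (67.5%) and for 37% of all genes tested.

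**Figure D2:**
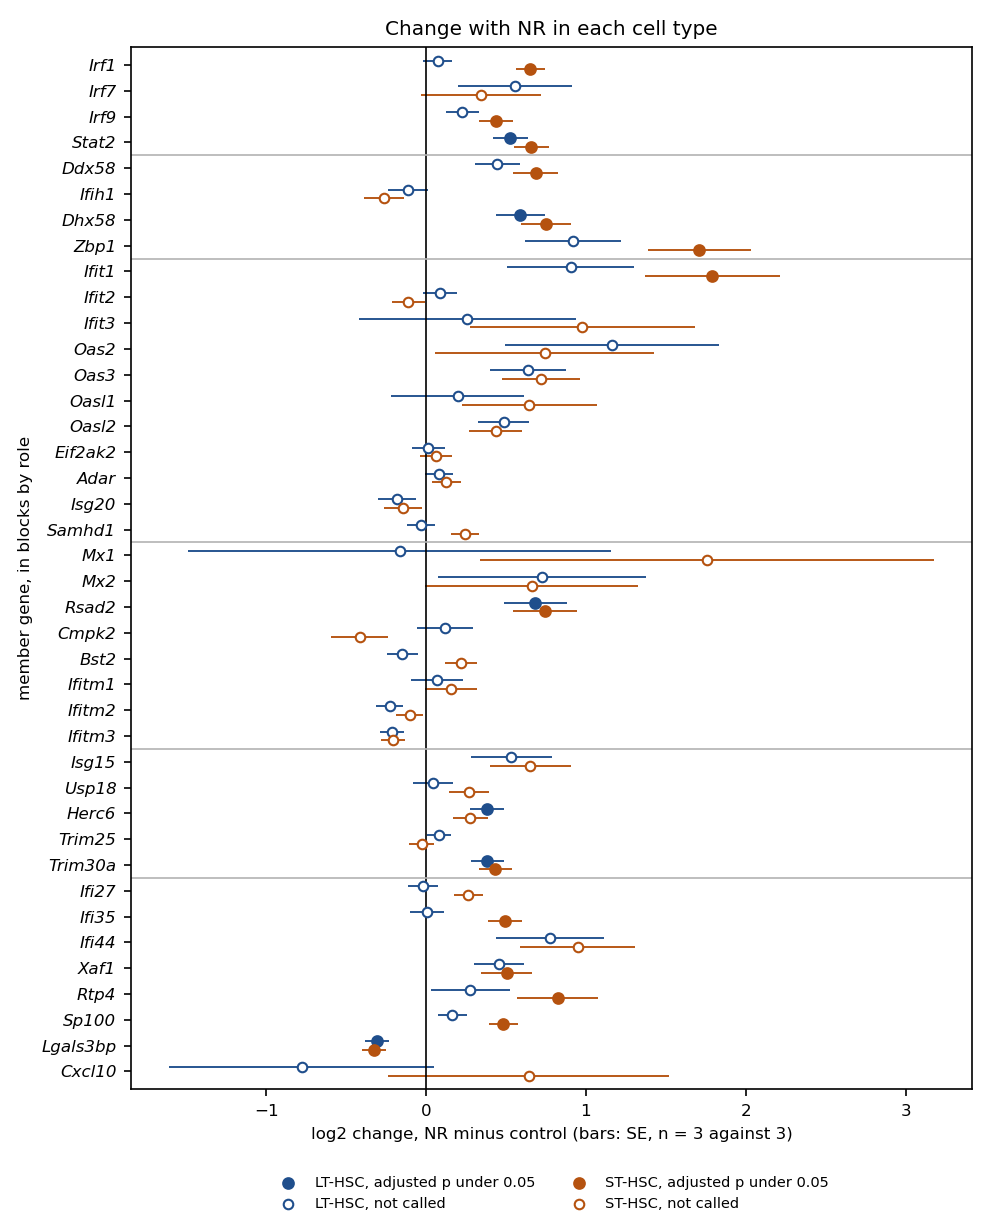
log2 change with NR (NR minus control, horizontal axis) of each member in LT-HSCs (blue) and ST-HSCs (orange). Points are edgeR estimates from 3 samples against 3, bars are standard errors and filled points have an adjusted p under 0.05: 6 in LT-HSCs and 14 in ST-HSCs.

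Among the 4 signalling factors and regulators, 3 were higher with NR in ST-HSCs and 1 in LT-HSCs. Stat2 (ENSMUSG00000040033), the transactivating subunit of ISGF3, was at 54.1, 44.6 and 60.3 CPM in control LT-HSC samples 1 to 3 and at 81.1, 76.0 and 72.1 CPM with NR. In ST-HSCs it went from 46.0, 48.2 and 52.6 CPM to 85.6, 72.3 and 73.7 CPM. All NR libraries lay above all controls in each cell type, with a log2 change of 0.53 ± 0.11 (SE, adjusted p = 0.00786) in LT-HSCs and 0.66 ± 0.11 (adjusted p = 0.00113) in ST-HSCs. Stat2 kept its call in both cell types under every alternative run. Irf9 (ENSMUSG00000002325), the DNA-binding subunit of ISGF3, was at 34.9, 28.4 and 28.6 CPM in control ST-HSCs and at 46.4, 39.8 and 38.6 CPM with NR, without overlap. It changed by 0.44 ± 0.11 (adjusted p = 0.0119), and this call ended on leaving out control sample 2 or 3 or NR sample 1 (adjusted p = 0.0567 to 0.0582), each sample here and after being left out singly. In LT-HSCs Irf9 was at 39.8, 40.8 and 37.1 CPM and, with NR, at 49.8, 46.4 and 41.6 CPM, a change of 0.23 ± 0.11 that was not called (adjusted p = 0.233).

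Irf1 (ENSMUSG00000018899), a DNA-binding factor gene that interferon gamma induces through its GAS, was nearly level among the control ST-HSC samples, at 36.7, 36.9 and 37.0 CPM, and rose to 58.8, 57.8 and 57.3 CPM with NR. The log2 change was 0.65 ± 0.09 (adjusted p = 4e-04), and the call held under every alternative run. In LT-HSCs the samples overlapped, at 48.9, 59.4 and 46.5 CPM in control culture and 54.0, 58.5 and 50.5 CPM with NR (log2 change 0.07 ± 0.09, adjusted p = 0.716). Irf7 (ENSMUSG00000025498), the factor that amplifies type I interferon genes, was at 5.76, 8.60 and 5.42 CPM in control LT-HSCs and 16.1, 7.83 and 5.14 CPM with NR. In ST-HSCs it was at 2.30, 2.00 and 3.19 CPM and, with NR, at 2.37, 3.17 and 4.01 CPM. The groups overlapped in each cell type and neither NR change was called (adjusted p = 0.43 and 0.713).

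**Figure D3:**
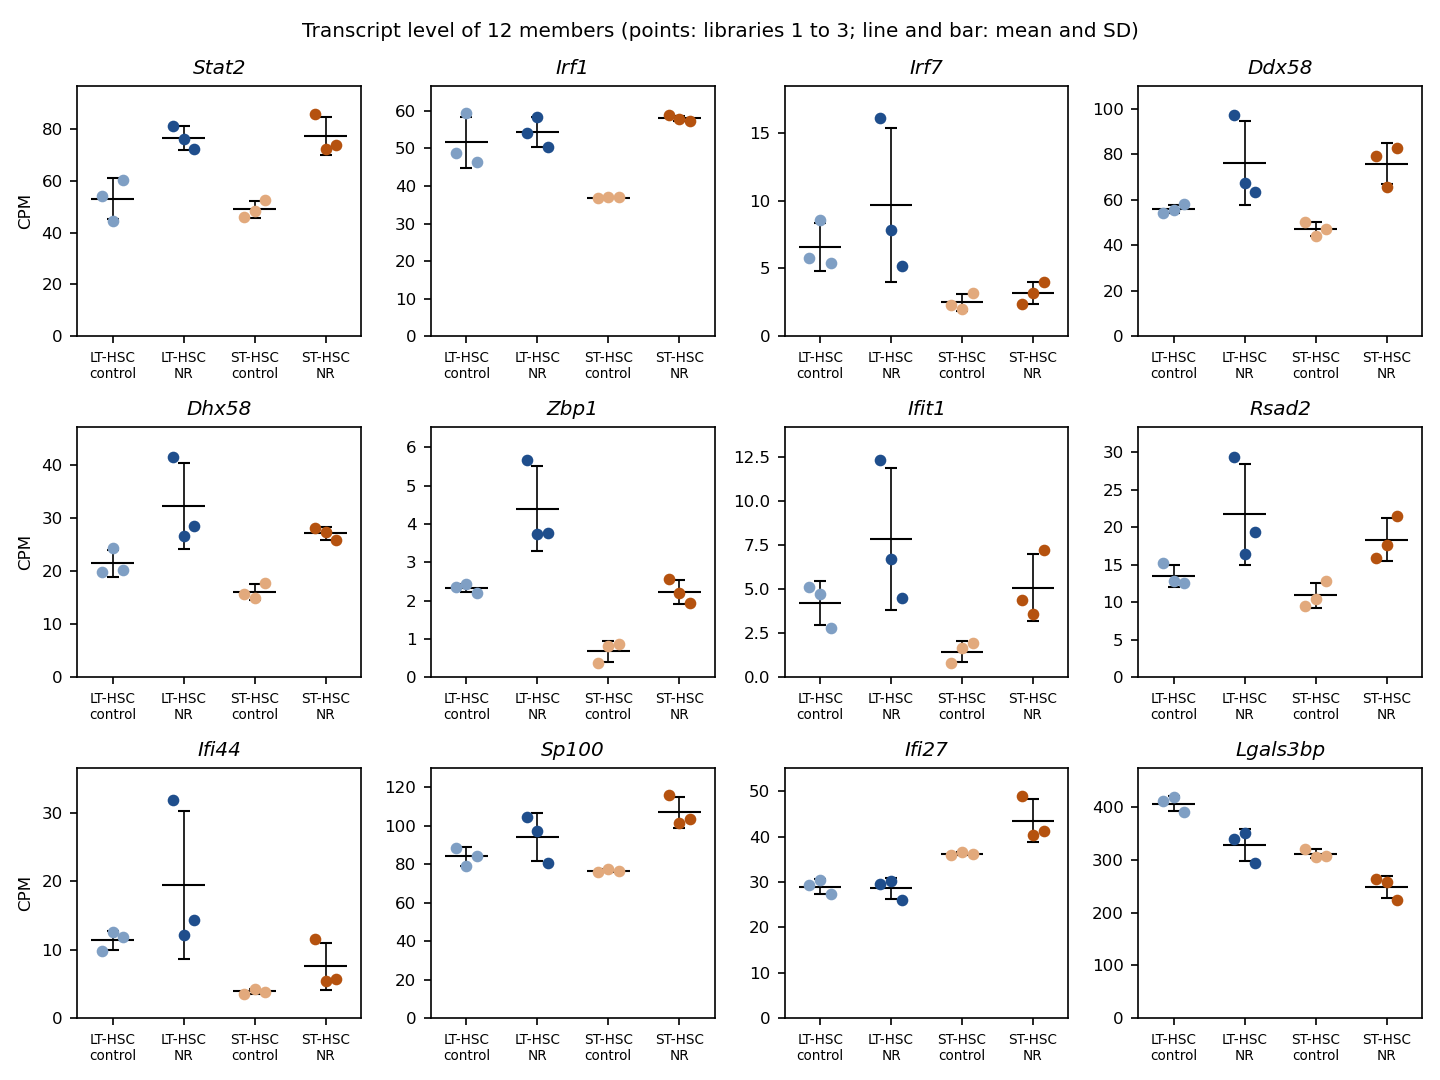
Level in CPM (vertical axes, each from 0) of 12 members in the 4 groups, with points for samples 1 to 3, a line at the mean and a bar for the SD. In Stat2 the NR samples of both cell types (72.1 CPM or more) lie above all controls (60.3 CPM or less), and in Irf7 and Ifi44 NR LT-HSC sample 1 lies far above the other samples.

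Of the 4 sensors of nucleic acid, 3 were higher with NR in ST-HSCs and 1 in LT-HSCs. Ddx58 (ENSMUSG00000040296) encodes RIG-I, which detects viral RNA ends. It lay at 50.0, 44.1 and 47.2 CPM in control ST-HSCs and at 79.2, 65.6 and 82.8 CPM with NR, a log2 change of 0.69 ± 0.14 (adjusted p = 0.00457). In LT-HSCs it was at 54.2, 55.6 and 57.9 CPM and, with NR, 97.3, 67.4 and 63.5 CPM. These groups did not overlap either, but the change of 0.45 ± 0.14 was not called without the block (adjusted p = 0.065). Dhx58 (ENSMUSG00000017830) encodes LGP2, a relative of RIG-I that lacks its signalling domains. It went from 19.8, 24.4 and 20.2 CPM to 41.5, 26.6 and 28.6 CPM in LT-HSCs, a change of 0.59 ± 0.15 (adjusted p = 0.0263). In ST-HSCs it went from 15.7, 14.9 and 17.8 CPM to 28.2, 27.4 and 25.8 CPM, a change of 0.75 ± 0.15 (adjusted p = 0.0045). No NR library of Dhx58 overlapped the controls of its cell type. The LT-HSC call of Dhx58 ended on leaving out control sample 1 or 3 or NR sample 1 (adjusted p = 0.0945 to 0.112), and without NR sample 1 its change was 0.36.

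Zbp1 (ENSMUSG00000027514), a sensor of Z-form nucleic acid that starts necroptosis, had the lowest values in control ST-HSCs, at 0.361, 0.823 and 0.858 CPM, or 11 to 28 counts per library. With NR these cells were at 2.57, 2.20 and 1.94 CPM, a log2 change of 1.71 ± 0.32 (adjusted p = 0.0027). LT-HSCs went from 2.35, 2.42 and 2.21 CPM to 5.67, 3.74 and 3.77 CPM, without overlap, and the change of 0.92 ± 0.30 was not called (adjusted p = 0.0776). The calls of Ddx58 and Zbp1 in ST-HSCs, and that of Dhx58 there, held under every alternative run. Ifih1 (ENSMUSG00000026896), which encodes the long-RNA sensor MDA5, was at 64.0, 66.6 and 57.1 CPM in control LT-HSCs and 70.9, 52.0 and 50.4 CPM with NR. In ST-HSCs it was at 52.1, 47.6 and 45.9 CPM and 38.5, 45.1 and 37.6 CPM. Its NR changes of -0.11 ± 0.12 and -0.27 ± 0.13 were not called (adjusted p = 0.684 and 0.201), although its ST-HSC samples with NR lay below all controls.

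Among the 11 effectors that act on RNA and translation, Ifit1 was the one called with NR, in ST-HSCs. Ifit1 (ENSMUSG00000034459), whose product binds foreign RNA at its capped end, was at 0.82, 1.65 and 1.93 CPM in control ST-HSCs and 4.41, 3.61 and 7.25 CPM with NR. The samples did not overlap and the log2 change was 1.79 ± 0.42 (adjusted p = 0.0104), the largest among the members called there. The call ended on leaving out control sample 1 (adjusted p = 0.0503). In LT-HSCs Ifit1 was at 5.12, 4.71 and 2.78 CPM and, with NR, at 12.3, 6.73 and 4.51 CPM, with overlap and no call (change 0.90 ± 0.40, adjusted p = 0.202). Oasl2 (ENSMUSG00000029561), a relative of the 2-5A synthetases, went from 34.0, 40.4 and 38.4 CPM to 67.9, 50.5 and 39.2 CPM in LT-HSCs and from 22.5, 25.4 and 27.1 CPM to 37.2, 30.6 and 33.5 CPM in ST-HSCs. The ST-HSC groups were apart and the LT-HSC groups overlapped, and neither change was called (adjusted p = 0.0938 and 0.0809).

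The other 9 of these effectors were called in no comparison. The 2-5A synthetase genes Oas2 and Oas3, whose enzymes make short adenylate chains on sensing double-stranded RNA, changed by 1.16 ± 0.67 and 0.64 ± 0.24 in LT-HSCs and by 0.74 ± 0.69 and 0.72 ± 0.24 in ST-HSCs. The samples of Oas2 were spread widely, at 9.20, 2.95 and 1.70 CPM in NR LT-HSCs and 2.07, 0.659 and 3.04 CPM in NR ST-HSCs. Oas3 was at 7.18, 7.04 and 8.49 CPM in control ST-HSCs and 12.4, 11.8 and 13.3 CPM with NR, apart but not called (adjusted p = 0.0635). Ifit2, Ifit3, Oasl1, Eif2ak2 (the translation-halting kinase PKR), Adar (an RNA-editing deaminase), Isg20 (an exonuclease) and Samhd1 (a deoxynucleotide hydrolase) had changes from -0.18 ± 0.12 (Isg20) to 0.26 ± 0.68 (Ifit3) in LT-HSCs. In ST-HSCs they ran from -0.14 ± 0.12 (Isg20) to 0.98 ± 0.70 (Ifit3). Ifit3 rested on 4 to 46 counts per library and Oas2 on 15 to 313, and the changes of both had wide errors.

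Of the 8 effectors at membranes, on nucleotides and of the dynamin-like kind, Rsad2 was called with NR, in both cell types. Rsad2 (ENSMUSG00000020641) encodes viperin, which makes a nucleotide that ends viral RNA chains. It was at 15.3, 12.8 and 12.6 CPM in control LT-HSCs and 29.3, 16.5 and 19.4 CPM with NR, and at 9.48, 10.5 and 12.8 CPM in control ST-HSCs and 15.9, 17.7 and 21.4 CPM with NR. Neither cell type showed overlap, and NR LT-HSC sample 1 was the highest of all. The changes were 0.68 ± 0.20 (adjusted p = 0.0452) and 0.74 ± 0.20 (adjusted p = 0.0205). The LT-HSC call ended on leaving out any control sample or NR sample 1 or 3 (adjusted p = 0.0551 to 0.174), and without NR sample 1 the change was 0.40. In ST-HSCs the call ended on leaving out control sample 1 or 2 or NR sample 3 (adjusted p = 0.0591 to 0.0909) and with both sample 3 NR libraries left out (adjusted p = 0.051). Cmpk2, the neighbouring gene of a mitochondrial nucleotide kinase, went the other way in ST-HSCs, from 23.0, 24.1 and 20.8 CPM to 17.7, 15.8 and 17.4 CPM, with all NR samples below the controls and no call (change -0.41 ± 0.18, adjusted p = 0.149).

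The virus tether gene Bst2, the membrane fusion blocker genes Ifitm1, Ifitm2 and Ifitm3 and the dynamin-like Mx1 and Mx2 were not called with NR. Ifitm3 was at 319, 351 and 311 CPM in control LT-HSCs and 279.9, 304 and 263 CPM with NR, and at 266, 280.5 and 268 CPM in control ST-HSCs and 249, 243 and 214 CPM with NR. It was below the controls in all 3 NR samples of each cell type (change -0.21 ± 0.07, adjusted p = 0.0937, and -0.20 ± 0.07, adjusted p = 0.0788), and was called lower in LT-HSCs with the block. Mx1 rested on 0 to 17 counts per library and Mx2 on 7 to 40, and their NR changes of -0.16 ± 1.32 and 0.72 ± 0.65 in LT-HSCs had wide errors. Reads that match several genes of the Ifit, Ifitm, Oasl and Mx families may have been lost or misassigned, which was not tested. Of the exon bases of Ifitm2, 40.9% are shared with Gm45717.

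Of the 5 genes of ISG15 conjugation and ubiquitin ligases, Trim30a was called with NR in both cell types and Herc6 in LT-HSCs. Trim30a (ENSMUSG00000030921), a TRIM protein gene that restrains NF-kB signalling, went from 48.4, 44.5 and 48.2 CPM to 68.1, 57.2 and 58.6 CPM in LT-HSCs. In ST-HSCs it went from 47.7, 46.3 and 42.7 CPM to 67.8, 64.5 and 52.1 CPM. No samples overlapped, and the changes were 0.38 ± 0.10 (adjusted p = 0.0325) and 0.43 ± 0.10 (adjusted p = 0.0109). Its LT-HSC call ended on leaving out any control sample or NR sample 1 or 2 (adjusted p = 0.0587 to 0.197), and its ST-HSC call on leaving out control sample 3 or NR sample 1 (adjusted p = 0.0513 to 0.0544). Herc6 (ENSMUSG00000029798), the main ligase of the ubiquitin-like ISG15 in mice, was at 18.0, 18.0 and 17.9 CPM in control LT-HSCs and 26.7, 23.1 and 20.2 CPM with NR. ST-HSCs were at 18.2, 17.9 and 20.1 CPM and 24.6, 22.3 and 21.4 CPM. Both pairs of groups were apart, with changes of 0.38 ± 0.11 (adjusted p = 0.0408) and 0.28 ± 0.11 (adjusted p = 0.101, not called). The LT-HSC call of Herc6 ended on leaving out any control sample or NR sample 1 or 2 (adjusted p = 0.0911 to 0.213), and 13.7% of its exon bases are shared with Gm45193.

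Isg15 itself, the ubiquitin-like modifier, was at 3.21, 2.97 and 2.94 CPM in control ST-HSCs and 4.17, 5.09 and 5.11 CPM with NR, and at 3.29, 3.62 and 3.74 CPM and 7.76, 3.78 and 3.85 CPM in LT-HSCs. The NR samples lay above all controls in each cell type, but the changes of 0.65 ± 0.25 and 0.53 ± 0.25 were not called (adjusted p = 0.103 and 0.24). Usp18, which removes ISG15 and blocks the type I receptor, changed by 0.04 ± 0.12 in LT-HSCs and 0.27 ± 0.12 in ST-HSCs, and the RIG-I ubiquitin ligase gene Trim25 by 0.08 ± 0.08 and -0.03 ± 0.08. None of these changes was called.

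Among the 8 other induced genes, NR raised 4 and lowered 1 in ST-HSCs, and raised 0 and lowered 1 in LT-HSCs. Sp100 (ENSMUSG00000026222), of the PML nuclear bodies, went from 76.1, 77.5 and 76.3 CPM to 116, 101 and 104 CPM in ST-HSCs, a change of 0.48 ± 0.09 (adjusted p = 0.0028). In LT-HSCs it overlapped, at 88.7, 79.2 and 84.5 CPM and 104, 97.5 and 80.6 CPM (change 0.16 ± 0.09, adjusted p = 0.351). Ifi35 (ENSMUSG00000010358), a partner of the STAT-binding protein Nmi, went from 25.2, 26.5 and 22.7 CPM to 37.6, 33.1 and 34.0 CPM in ST-HSCs, a change of 0.49 ± 0.11 (adjusted p = 0.00623). In LT-HSCs Ifi35 was at 34.1, 33.9 and 33.9 CPM and 35.0, 38.4 and 28.6 CPM (change 0.00 ± 0.11, adjusted p = 0.989). The ST-HSC calls of Sp100 and Ifi35 held under every alternative run. Antisense Gm11626 shares 16.8% of the exon bases of Ifi35, and the strand setting of the counting is not given in the sources used here.

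Xaf1 (ENSMUSG00000040483), an antagonist of the apoptosis inhibitor XIAP, went from 7.58, 8.73 and 8.86 CPM to 12.1, 10.7 and 12.9 CPM in ST-HSCs, without overlap (change 0.51 ± 0.16, adjusted p = 0.0454). In LT-HSCs it was at 11.2, 11.7 and 8.80 CPM and 17.2, 14.8 and 11.4 CPM, with overlap (change 0.46 ± 0.16, adjusted p = 0.0925). The call of Xaf1 ended on leaving out any control sample or NR sample 1 or 3 (adjusted p = 0.0835 to 0.161), with limma-voom (adjusted p = 0.075) and with both sample 3 NR libraries left out (adjusted p = 0.0535). Rtp4 (ENSMUSG00000033355), a chaperone gene for receptors in the Golgi, overlapped between control and NR ST-HSCs, at 6.76, 4.29 and 5.52 CPM and 12.1, 6.59 and 10.7 CPM (change 0.82 ± 0.25, adjusted p = 0.0411). LT-HSCs were at 11.8, 10.7 and 9.98 CPM and 17.9, 10.6 and 10.8 CPM (change 0.28 ± 0.25, adjusted p = 0.606). The ST-HSC call of Rtp4 ended on leaving out control sample 2 or 3 or NR sample 1 or 3 (adjusted p = 0.0957 to 0.16), with limma-voom (adjusted p = 0.0676) and with both sample 3 NR libraries left out (adjusted p = 0.0771).

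Lgals3bp (ENSMUSG00000033880), a secreted glycoprotein gene that binds galectins, went from 410.5, 418 and 389.8 CPM to 339.8, 351 and 293 CPM in LT-HSCs and from 321, 305 and 308 CPM to 263, 258 and 224 CPM in ST-HSCs. All NR samples lay below the controls of their cell type, and it fell by 0.31 ± 0.08 (adjusted p = 0.0213) and 0.33 ± 0.08 (adjusted p = 0.00987). Both calls of Lgals3bp ended with no filter (adjusted p = 0.122 and 0.108) and with both sample 3 NR libraries left out, where the changes were -0.21 (adjusted p = 0.0778) and -0.18 (adjusted p = 0.0959). The LT-HSC call also ended on leaving out control sample 1 or 2 or any NR sample (adjusted p = 0.0657 to 0.09), and the ST-HSC call on leaving out NR sample 3 (adjusted p = 0.208).

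Ifi44 (ENSMUSG00000028037), a gene of the interferon-induced 44 family, was at 9.75, 12.5 and 11.8 CPM in control LT-HSCs and 31.8, 12.1 and 14.3 CPM with NR, and at 3.61, 4.33 and 3.89 CPM and 11.6, 5.37 and 5.80 CPM in ST-HSCs. The LT-HSC groups overlapped and the ST-HSC groups did not, and neither change was called (adjusted p = 0.2 and 0.0973). Ifi27 (ENSMUSG00000064215), a small membrane protein gene, was at 29.3, 30.4 and 27.3 CPM in control LT-HSCs and 29.6, 30.2 and 25.9 CPM with NR. In ST-HSCs it was at 36.0, 36.5 and 36.1 CPM and 48.9, 40.4 and 41.1 CPM, apart but not called (change 0.27 ± 0.09, adjusted p = 0.0718). The chemokine gene Cxcl10 had 179 counts in control LT-HSC sample 2 and 3 to 51 in the other libraries, and its change in LT-HSCs was -0.78 ± 0.83.

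LT-HSCs and ST-HSCs were then compared within each culture. In control culture 7 members were higher in LT-HSCs and 0 lower (17.5% of members higher, beside 3.51% of all genes called higher and 1.5% called lower). At an unadjusted p under 0.05, 1 member was lower, and DESeq2 called 0 and limma-voom 1 lower. With NR, 5 members were higher and 1 lower in LT-HSCs (12.5% and 2.5%, beside 3.8% and 2.27% of all genes). The members' median log2 difference, LT-HSC minus ST-HSC, was 0.33 in control culture and 0.25 with NR, and over all genes it was -0.05 and 0.02. Differences were positive for 36 and 30 of the 40 members. Irf7, Ifi44 and Lgals3bp were higher in LT-HSCs in both cultures. These comparisons share their samples with the NR comparisons above.

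**Figure D4:**
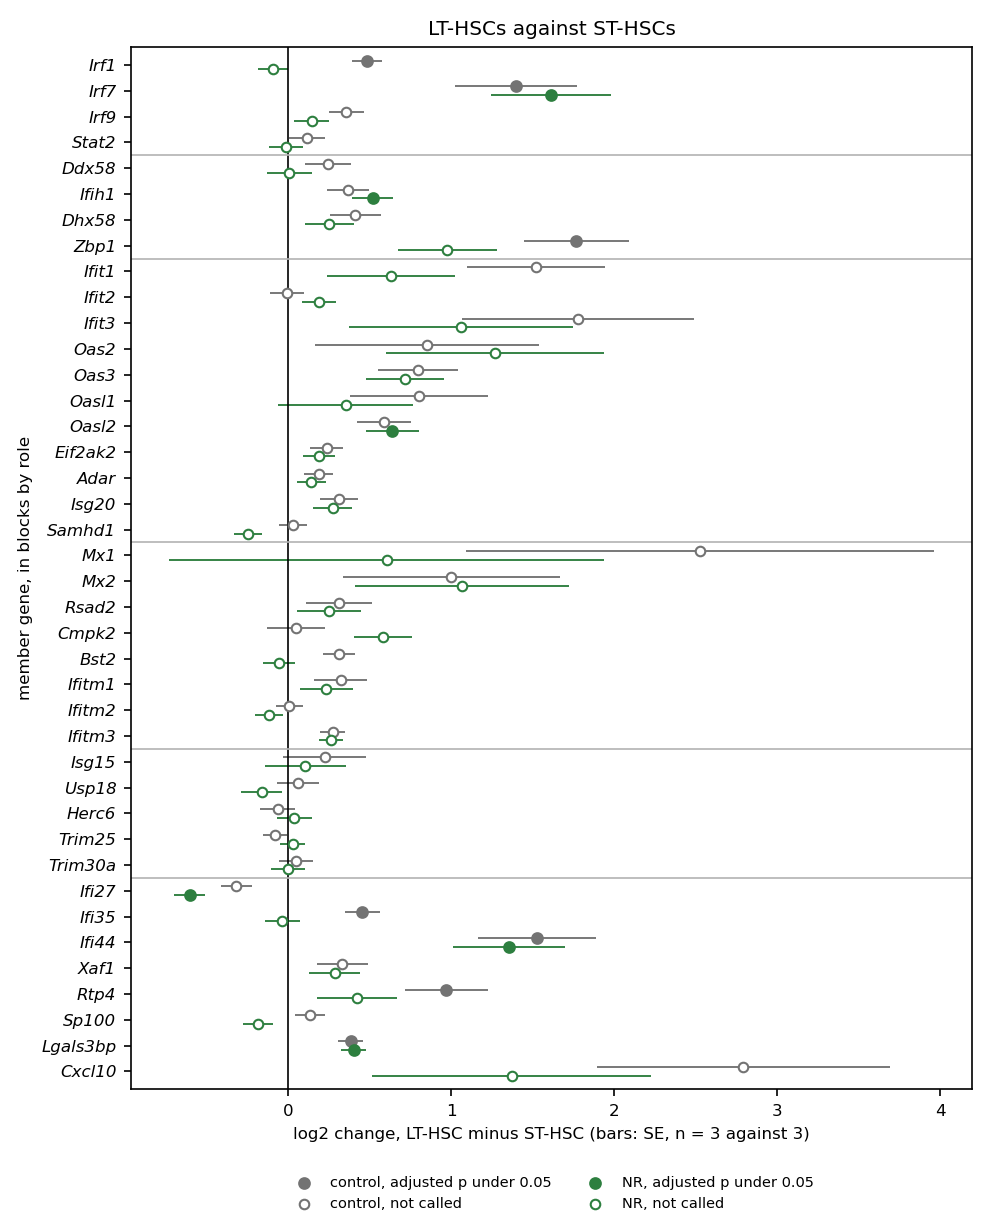
log2 difference between cell types (LT-HSC minus ST-HSC, horizontal axis) of each member in control culture (grey) and with NR (green). Points are edgeR estimates from 3 samples against 3, bars are standard errors and filled points have an adjusted p under 0.05: 7 in control culture and 6 with NR, of which Ifi27 is negative.

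These numbers moved when libraries were left out. In control culture 3 or 4 members were higher with any 1 library left out, where all genes called higher fell from 696 to between 470 and 566, and 11 members were higher with both sample 3 NR libraries left out. The control differences of the members that lost their call stayed within 1.16 to 1.61 (Irf7), 1.37 to 1.63 (Ifi44), 0.39 to 0.50 (Ifi35) and 0.82 to 1.14 (Rtp4) under all alternatives run. With NR the number was 0 without LT-HSC sample 1, 8 without LT-HSC sample 3, and 3, 2 and 1 without ST-HSC samples 1, 2 and 3. With both sample 3 NR libraries left out 4 were higher and 1 lower. All genes called higher went from 753 to 514, 750, 574, 747 and 667 in these 1-library fits, in the same order. Without both sample 3 NR libraries 627 were higher and 330 lower. From correlations alone, the sample number was taken to pair the samples in the NR comparison. With it as a block Cmpk2 (adjusted p = 0.0415) and Ifitm3 (adjusted p = 0.00907) were also higher, 7 members in all, beside 1014 of all genes.

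By role, Irf7 was higher in LT-HSCs by 1.40 ± 0.37 in control culture (adjusted p = 0.0497) and by 1.61 ± 0.37 with NR (adjusted p = 0.0188). Every LT-HSC sample of Irf7 (5.14 to 16.1 CPM) lay above every ST-HSC sample (2.00 to 4.01 CPM). Its control call ended on leaving out any LT-HSC sample or any ST-HSC sample (adjusted p = 0.0774 to 0.209), and its NR call on leaving out LT-HSC sample 1 or ST-HSC sample 1 or 2 (adjusted p = 0.0601 to 0.0828) and in a fit of only the groups compared (adjusted p = 0.069). Irf1 was higher in control LT-HSCs by 0.48 ± 0.09 (adjusted p = 0.00662), with no overlap. With NR the cell types overlapped in Irf1 (-0.09 ± 0.09, adjusted p = 0.801). Zbp1, the Z-form sensor, was higher in control LT-HSCs by 1.77 ± 0.32 (adjusted p = 0.00496) and with NR by 0.98 ± 0.30, which was not called (adjusted p = 0.0848). The control calls of Irf1 and Zbp1 held under every alternative run. Ifih1 was higher in LT-HSCs with NR by 0.52 ± 0.13 (adjusted p = 0.0272), a call that ended on leaving out LT-HSC sample 1 or ST-HSC sample 1 or 3 (adjusted p = 0.102 to 0.158), in a fit of only the groups compared (adjusted p = 0.0968) and with both sample 3 NR libraries left out (adjusted p = 0.063). Without NR LT-HSC sample 1 the difference of Ifih1 was 0.32.

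Oasl2 was higher in LT-HSCs with NR by 0.64 ± 0.16 (adjusted p = 0.0328), which ended on leaving out LT-HSC sample 1 or 2 or ST-HSC sample 2 or 3 (adjusted p = 0.0834 to 0.162) and in a fit of only the groups compared (adjusted p = 0.116). Without NR LT-HSC sample 1 the difference of Oasl2 was 0.38. Ifi44 was higher in LT-HSCs by 1.53 ± 0.36 in control culture (adjusted p = 0.0256) and by 1.35 ± 0.34 with NR (adjusted p = 0.0341). The lowest LT-HSC sample of Ifi44 was above the highest ST-HSC sample in each culture. Its control call ended on leaving out LT-HSC sample 2 or 3 or any ST-HSC sample (adjusted p = 0.0753 to 0.11). With NR the call of Ifi44 ended on leaving out LT-HSC sample 1 or ST-HSC sample 2 or 3 (adjusted p = 0.118 to 0.203), in a fit of only the groups compared (adjusted p = 0.139) and with both sample 3 NR libraries left out (adjusted p = 0.0792), and without NR LT-HSC sample 1 the difference was 0.75.

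Ifi35 was higher in control LT-HSCs by 0.45 ± 0.11 (adjusted p = 0.0255), which ended on leaving out any LT-HSC sample or ST-HSC sample 1 or 3 (adjusted p = 0.0723 to 0.126). The receptor chaperone gene Rtp4 was higher there by 0.97 ± 0.25 (adjusted p = 0.045), which ended without any 1 of the 6 libraries (adjusted p = 0.0561 to 0.185) and with relative log expression factors (adjusted p = 0.0514). Lgals3bp was higher in LT-HSCs by 0.38 ± 0.08 in control culture (adjusted p = 0.00886), under every alternative run, and by 0.40 ± 0.08 with NR (adjusted p = 0.00593). The NR call of Lgals3bp ended on leaving out LT-HSC sample 1 or 2 or ST-HSC sample 3 (adjusted p = 0.0536 to 0.0815). Ifi27 was the member lower in LT-HSCs, with a difference of -0.61 ± 0.09 with NR (adjusted p = 0.00135) that held under every alternative run. In control culture it was -0.32 ± 0.09 and not called (adjusted p = 0.0755), although all LT-HSC samples of Ifi27 were below all ST-HSC samples.

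Beyond the members, the pathway was followed from ligand to target. The 21 interferon genes had 3 to 39 counts per library in all and none was tested. Their highest sums, 39 and 38, were those of sample 3 in each NR group, the libraries richest in unassigned reads, and whether these reads come from transcripts was not tested. Of the 11 genes for receptors, JAK kinases and STATs, 3 were higher with NR in LT-HSCs and 6 in ST-HSCs, and 0 were lower (median log2 change 0.23 and 0.32). Of all genes tested, 2.38% were called higher in LT-HSCs and 5.82% in ST-HSCs. Ifnar2, a chain of the type I receptor, was at 59.9, 58.1 and 56.3 CPM in control ST-HSCs and 91.3, 90.6 and 85.2 CPM with NR, a change of 0.61 ± 0.08 (adjusted p = 0.000168). In LT-HSCs Ifnar2 changed by 0.36 ± 0.08 (adjusted p = 0.0102). Il10rb, a chain of the lambda interferon and interleukin 10 receptors, rose by 0.44 ± 0.11 in LT-HSCs and 0.79 ± 0.11 in ST-HSCs. Jak2 rose by 0.45 ± 0.13 in LT-HSCs, and Stat3 by 0.32 ± 0.07 and the gamma receptor gene Ifngr1 by 0.39 ± 0.09 in ST-HSCs.

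Of 9 other interferon regulatory factors, 0 were higher in LT-HSCs and 1 in ST-HSCs, Irf2bpl (0.69 ± 0.17, adjusted p = 0.0131), and 0 were lower in either. Of 9 brakes on the pathway, 0 were higher and 1 lower in LT-HSCs, and 2 were higher and 1 lower in ST-HSCs. The phosphatase gene Ptpn11 fell by 0.45 ± 0.08 and 0.40 ± 0.08, while the STAT inhibitor gene Pias4 rose by 0.50 ± 0.09 and the phosphatase gene Ptpn6 by 0.39 ± 0.07 in ST-HSCs. Of 17 tested genes of nucleic acid sensing and its adaptors, 2 were higher and 1 lower in LT-HSCs and 4 higher and 1 lower in ST-HSCs. A lower call of 1 in 9 or 1 in 17 genes was near the shares of all genes called lower (7.58% and 11.1%). The shares of all genes called higher were 2.38% in LT-HSCs and 5.82% in ST-HSCs. Aim2, a sensor of DNA in the cytosol, rose by 0.71 ± 0.12 and 0.91 ± 0.12 in LT-HSCs and ST-HSCs. The kinase gene Tbk1 rose by 0.32 ± 0.06 and the double-stranded RNA receptor gene Tlr3 by 1.55 ± 0.33 in ST-HSCs, and Rnaseh2b, of the enzyme that clears RNA from DNA hybrids, fell by 0.37 ± 0.08 in LT-HSCs.

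Of 66 tested other interferon-stimulated genes, 7 were higher and 4 lower in LT-HSCs and 16 higher and 6 lower in ST-HSCs (median log2 change 0.15 and 0.22). The 4 and 6 of 66 called lower were near the shares of all genes called lower, 7.58% in LT-HSCs and 11.1% in ST-HSCs. All genes called lower fell from 1503 to 877 in LT-HSCs without the NR libraries richest in unassigned reads. In ST-HSCs they fell from 2193 to 1229. No depletion of lower calls is read from this list. Trim12c, of the TRIM gene cluster that also holds Trim30a, rose by 0.92 ± 0.09 in ST-HSCs, its relative Trim12a by 0.75 ± 0.13 in LT-HSCs, and Shisa5 by 0.43 ± 0.07 and 0.58 ± 0.07. The aminopeptidase gene Lap3 fell by 0.53 ± 0.08 and 0.54 ± 0.08 and the galectin gene Lgals9 by 0.44 ± 0.07 and 0.46 ± 0.07. No gene of these lists was called for a difference of the NR effects between the cell types.

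Markers of other blood cells moved with NR as well. Of 14 tested monocyte, macrophage and dendritic cell markers, 2 were higher in LT-HSCs and 4 in ST-HSCs, and 0 were lower. Among all genes, 2.38% and 5.82% were called higher, and 7.58% and 11.1% lower, in LT-HSCs and ST-HSCs. The summed level of the 15 markers was 342.0 to 357 CPM in control ST-HSCs and 479 to 581 CPM with NR, and 372 to 419 CPM in control LT-HSCs and 399 to 508 CPM with NR. Most of this sum was Lyz2, at 276, 261 and 268 CPM in control ST-HSCs and 383, 356 and 319.9 CPM with NR. Cd74 of the same list went the other way in LT-HSCs, from 16.4, 18.6 and 5.95 CPM to 5.26, 4.88 and 2.29 CPM, with all NR samples below the controls and no call (change -1.72 ± 0.61, adjusted p = 0.106). Cd68 was at 5.97, 5.36 and 5.03 CPM in control ST-HSCs and 33.9, 18.1 and 21.5 CPM with NR (change 2.17 ± 0.21, adjusted p = 2.73e-05), and Tyrobp and Fcer1g rose there by 1.64 ± 0.23 and 0.96 ± 0.09. Low-level markers of this list included Csf1r at 0.735 to 4.87 CPM, Ccr2 at 0.206 to 1.16 CPM and Adgre1 at 0 to 1.13 CPM over the 12 libraries. In ST-HSCs the means of these markers were 1.86, 0.612 and 0.590 CPM in control culture and 3.44, 0.839 and 0.581 CPM with NR. Markers of plasmacytoid dendritic cells, known as strong makers of type I interferon, were higher in 0 of 6 cases in either cell type and lower in 1 case in ST-HSCs, and Siglech was at 0 to 1.52 CPM. Megakaryocyte and platelet markers were lower in 4 of 10 cases in LT-HSCs and 5 in ST-HSCs, beside 7.58% and 11.1% of all genes. Their summed level was 3183 to 3512 CPM in control ST-HSCs and 1893 to 2478 CPM with NR. The part of these markers' cells in the members' changes was not tested. Between the cell types, 10 of 16 HSC markers were higher in LT-HSCs in control culture and 2 lower, beside 3.51% and 1.5% of all genes. Ly6a, with a mean of 37.6 CPM in control LT-HSCs and 6.24 CPM in control ST-HSCs, is also on the list of other interferon-stimulated genes.

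Within groups the members did not vary evenly. NR LT-HSC sample 1 had the highest value of its group in 29 of 40 members and sample 3 in 0. The members' median log2 difference from the control mean of the cell type was 0.38, 0.17 and -0.05 in NR LT-HSC samples 1, 2 and 3. It was 0.41, 0.25 and 0.44 in NR ST-HSC samples 1, 2 and 3, and between -0.04 and 0.06 in the 6 controls. The sample richest in unassigned reads was thus the lowest of the NR LT-HSCs and the highest of the NR ST-HSCs.

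**Figure D5:**
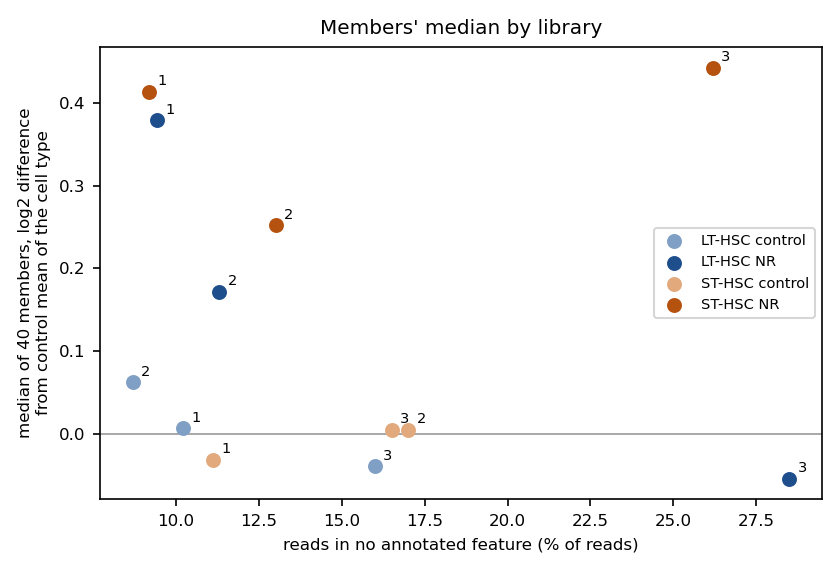
Median over the 40 members of the log2(CPM + 0.5) difference from the control mean of the cell type (vertical axis) against the percentage of reads outside annotated genes (horizontal axis), 1 point per library with its sample number. The 3 NR ST-HSC libraries lie at 0.25 to 0.44 across shares of 9.17% to 26.2%, and the NR LT-HSC libraries spread from -0.05 to 0.38.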

How the data were processed

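RNA of 12 libraries in 4 groups was made into cDNA by SMART-seq v4 from 2.5 ng RNA and tagmented with Nextera XT, per the labels' protocols. The deposited table holds read counts, with Ensembl genes as rows and libraries as columns. Per the submitters' processing notes, reads went through FastQC 0.11.2, STAR 2.5.0b and HTSeq 0.6.1. Build, annotation, strandedness and filtering are not given in the sources used. Reads in no annotated gene (8.69% to 28.5%) and the other rows that name no gene stayed out of library sizes and tests, and 0 columns were not used. No replicate pair was a duplicate by a chi-square test of its counts.

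The test was edgeR 4.0.16 (quasi-likelihood, two-sided) with TMM factors, fitted to 4 group means over the 12 samples after a filter on low counts (minimum count 10, minimum total 15) that kept 19830 genes. Benjamini-Hochberg adjustment ran over all of these in each comparison, and genes with an adjusted p under 0.05 were called. The residual degrees of freedom were 8 and the biological coefficient of variation 0.402. Errors of log2 changes are SE, and CPM uses the TMM-scaled library sizes. Alternatives were other scaling (upper-quartile or relative log expression), DESeq2 1.42.0, limma-voom (limma 3.58.1) with quality weights, no filter, a filter at a mean of 5 CPM, a fit of just the groups being compared, a block for the sample number, a covariate for the unassigned share, and fits without both sample 3 NR libraries (the richest in unassigned reads) or without each library in turn, with the same genes tested wherever libraries were left out.

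The sample number was taken to pair samples where, in each of the 3 pairs, deviations from the group means correlated above 0.1 across genes: 0.51, 0.25 and 0.71 for NR against control in LT-HSCs, and 0.74, 0.15 and 0.84 for LT-HSCs against ST-HSCs with NR. No label states such a pairing. Same-numbered libraries of the NR groups also had similar unassigned shares, 9.41% and 9.17% in sample 1 and 28.5% and 26.2% in sample 3. Whether pairing or library quality gave the correlations was not tested. The block was fitted over all 12 samples. Per-sample values are given for each member called in at least 1 comparison (20 of 40), and up to 4 called genes with the smallest p are named per pathway list and NR comparison. The printed promoters were chosen after the values were seen, and the members and lists with earlier results of these data known. Promoter windows are RefSeq's (GRCm38.p6), and exon overlaps and upstream annotation come from GENCODE M21. Some genes of the wider pathway lists are counted in the lists but not reported here by name.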

Additional observations from a re-analysis of the deposited data

How the results depend on the processing

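No called member changed direction under any alternative run. Of the calls, 1 of 6 held under all alternatives for NR in LT-HSCs (Stat2), 7 of 14 for NR in ST-HSCs (Irf1, Stat2, Ddx58, Dhx58, Zbp1, Ifi35 and Sp100), 3 of 7 for the cell types in control culture (Irf1, Zbp1 and Lgals3bp) and 1 of 6 with NR (Ifi27). Members higher with NR in LT-HSCs, 5 as reported, numbered 8 with upper-quartile factors, 10 with DESeq2 or limma-voom, 9 with no filter or the covariate, 11 with the 5 CPM filter and 8 without both sample 3 NR libraries, the richest in unassigned reads. All genes called higher there moved too, from 472 of 19830 to 829 with upper-quartile factors, 642 with limma-voom, 693 with the covariate and 521 without these libraries. They were 1072 of 13110 with DESeq2, 685 of 46386 with no filter and 1261 of 10475 with the 5 CPM filter. The 1 lower member there became 2 with upper-quartile factors or the replicate block and 0 with no filter or without these 2 libraries. In ST-HSCs, DESeq2 called 21 higher, and over all genes it called 1957 of 14010 higher, where edgeR called 1155 of 19830. The 1 lower member became 2 with limma-voom, the block, the covariate or the fit of the groups compared, and 0 with no filter or without the 2 libraries. For the difference of the NR effects, DESeq2, no filter and the 5 CPM filter each called 1. Members higher in control LT-HSCs, 7 as reported, numbered 11 with upper-quartile factors or without the 2 libraries, 14 with DESeq2 or no filter, 13 with limma-voom, 12 with the 5 CPM filter or the block and 16 in the fit of the groups compared. All genes higher there went from 696 of 19830 to 837 with upper-quartile factors, 919 without the 2 libraries, 1134 with limma-voom and 890 with the block. They were 1018 of 18502 with DESeq2, 885 of 46386 with no filter, 832 of 10475 with the 5 CPM filter and 1105 of 16730 in the fit of the groups compared. The count of 0 lower became 1 with upper-quartile factors, limma-voom, the 5 CPM filter, the block, the covariate or the fit of the groups compared. With NR, the 5 higher in LT-HSCs became 9 with DESeq2 and 1 in the fit of the groups compared, and the 1 lower became 2 with the 5 CPM filter. All genes higher there were 753 of 19830 as reported, 1069 of 14908 with DESeq2 and 489 of 16892 in the fit of the groups compared. With each library left out in turn, 1 to 7 members were higher and 0 to 1 lower with NR in LT-HSCs, 9 to 13 and 0 to 1 in ST-HSCs, 3 to 4 higher in control LT-HSCs and 0 to 8 higher in LT-HSCs with NR. The causes were not tested.

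With the sample number as a block, 15 members rose and 2 fell with NR in ST-HSCs, beside 1361 and 2653 of all genes. In control LT-HSCs 12 members were higher and 1 lower, beside 890 and 436 of all genes. For NR in ST-HSCs the correlations by sample number were 0.67, -0.06 and 0.55, and for the cell types in control culture 0.43, -0.23 and 0.43. Sample 2 fell below the cutoff of 0.1 in each, so the number was not taken to pair the samples, although samples 1 and 3 lay above it. In these comparisons 4 of 6 and 3 of 6 samples correlated best with their own number. Mx1, Mx2, Ifit3, Cxcl10 and Oas2 had NR changes with standard errors of 0.65 or more in both cell types, and Mx1 (0 to 17), Mx2 (7 to 40) and Ifit3 (4 to 46) had few counts per library. The part of depth in these errors was not tested.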
